A study of Mus musculus with 2 samples.

Results

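The replication-dependent histone genes supply the histones that package newly copied DNA, and their RNA was followed here across the cell types and cultures of a mouse intestinal organoid pool. Genes were taken by symbol: H1f1 to H1f5, numbered H2ac, H2bc, H3c and H4c genes, and genes still carrying an Hist1h name. Of 22253 genes in the matrix, 63 matched and 62 had at least 1 count, with H2ac1 at 0. The 62 were 5 linker histone H1 genes, 16 H2A genes, 17 H2B genes, 12 H3 genes and 12 H4 genes. By GENCODE vM21 on GRCm38, 52 of them lie on chromosome 13 and 10 on chromosome 3.

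The cells came from distal small intestinal organoids of the reporter genotype Neurog3-RFP;Gcg-Venus, which marks enteroendocrine progenitors and glucagon-expressing cells. There were 2 control cultures and 3 cultures mutant for Etv1, an ETS-family transcription factor; the nature of the mutation, the sort gate and the age of the animals are not given in the sources used here. All 5 cultures carry both reporters. Cells were sorted, marked with one hashtag oligonucleotide per culture, pooled and sequenced together, and the labels describe the RNA as polyA RNA. The labels call the cultures of a group biological replicates.

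Histone genes of this class are transcribed at high rate during S phase, when DNA is replicated. Their mRNAs normally end in a conserved stem-loop bound by the protein Slbp rather than in a poly(A) tail, and they are degraded when replication stops. The intestinal crypt, from which organoids are grown, holds rapidly dividing stem and progenitor cells beside differentiated cells that have left the cycle.

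The stem-loop is the sequence that sets these mRNAs apart, so it is shown first. The 16-base histone stem-loop motif, allowing any pyrimidines and purines in its stem, was searched in the GENCODE vM21 transcript models after the coding region, on the transcript strand. Where a gene had several coding models, the one with the longest sequence after its coding region was used. The motif was found in 41 of 62 models, and in all 41 all 6 stem positions could pair. In the following lines capitals mark the stem-loop and lower case the 5 bases on each side (transcript strand, from the gene models on GRCm38).

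H2ac8: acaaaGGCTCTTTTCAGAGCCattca
H1f4: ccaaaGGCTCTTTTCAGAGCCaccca
H2ac18: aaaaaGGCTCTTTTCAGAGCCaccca
H3c3: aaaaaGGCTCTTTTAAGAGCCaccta
H2ac20: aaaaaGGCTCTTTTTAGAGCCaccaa
H4c4: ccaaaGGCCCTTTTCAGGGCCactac
H4c9: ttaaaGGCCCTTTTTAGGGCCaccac
H4c2: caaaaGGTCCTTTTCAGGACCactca

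The form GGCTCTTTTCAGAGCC occurred in 23 models of H1, H2A, H2B and H3 genes. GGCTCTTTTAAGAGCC occurred in 5, namely H2bc12, H3c7, H3c6, H3c3 and H2bc3. All H4 loops that were found began with GGCCC or GGTCC, and every loop of the other families began with GGCTC. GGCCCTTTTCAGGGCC was the commonest H4 form, in 6 models.

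Where a model ended relative to the stem-loop differed between members. Models of 14 genes ended before any stem-loop, 3 ended within 20 bases after it, 22 ended 20 to 200 bases past it and 16 ran over 200 bases past it. The other 7 held no motif. The search covered only the model used for each gene, so a stem-loop in another model or in the genome beside it would be missed. Of the 16 long models 8 held AATAAA, a polyadenylation signal, after the loop. H1f4, whose product is a linker histone, has 1153 annotated bases past its loop, H1f2 has 840 with AATAAA, and H2ac8 has 151 with AATAAA. H2bc4, an H2B gene at chr13:23684199-23692908 on the plus strand, has 1 coding model, of 1156 bases. This model has 742 bases after its coding region and no motif.

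H2A and H2B genes of 9 pairs start within a shared promoter and are read in opposite directions. The stretch between the starts of H2ac8 and H2bc8 is shown because H2ac8 had the most counts of all members (chr13:23571221-23571399, plus strand, RefSeq on GRCm38.p6). Capitals mark the octamer ATTTGCAT, CCAAT boxes and TATAAA, on either strand.

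H2ac8 and H2bc8: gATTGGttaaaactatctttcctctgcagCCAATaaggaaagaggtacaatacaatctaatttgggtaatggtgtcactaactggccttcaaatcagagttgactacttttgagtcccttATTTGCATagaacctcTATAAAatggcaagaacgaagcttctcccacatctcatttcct

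This 179-base stretch holds 1 octamer, 2 CCAAT boxes and 1 TATAAA. RefSeq promoters, from 250 bases before to 50 after the start, were matched for 57 of 62 members. The octamer, the site classically bound by the transcription factor Oct-1, lay in 6 of 15 H2B and 5 of 16 H2A promoters, in none of the H1, H3 and H4 promoters, and in 1.74% of all 32851 promoters. CCAAT lay in 49 of 57 against 37.41% of all, and in every H1, H2A, H2B and H3 promoter but only 3 of 11 H4 promoters. TATAAA lay in 33 of 57 against 13.62%. TTTCGCGC, an E2F-type site, lay in 9 of 57, all of them H2A or H2B genes, against 0.32%. Both strands were searched, and a match describes letters only.

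H2ac8 lies at chr13:23570517-23571220 on the minus strand, and the linker histone genes H1f5 (chr13:21779883-21780625), H1f4 (chr13:23620629-23622558) and H1f2 (chr13:23738808-23740367) lie in the same chromosome 13 region. H2ac18 lies at chr3:96245497-96246082 on the plus strand.

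Near-identical copies limit what can be said of single genes. Over the median H2A gene 82.8% of the 31-base words of the transcript also occurred in another member, against 54.7% for H2B, 61.0% for H3 and 3.1% for H1. The deposited counts were split accordingly: 94.4% of the values of the median H2A gene were not whole numbers, against 25.1% for H1. Single-gene values of most H2A, H2B, H3 and H4 genes are therefore uncertain shares of reads common to several copies. Exceptions were H2bc18, H2bc21 and H4c14, with only whole counts, and H4c4, with fractions in 5.6% of values. The linker histone genes H1f3, H1f2 and H1f4 had fractions in 45.2%, 33.0% and 25.1% of values, so they are uncertain in part too. H1f5 and H1f1, both linker histones, had only whole counts.

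After removal of barcodes with fewer than 500 genes, over 25% mitochondrial counts, no hashtag or several hashtags, 1432 of 3409 barcodes were analysed, 672 control and 760 mutant. They held 31225225 counts of unique molecules (UMIs), with a median of 20842 to 24126 per cell in the 5 cultures. The RNA and hashtag tables are readouts of the same pool and share all 3409 barcodes. Clustering without any histone member gave 12 clusters, of which 8 were named from markers. Markers of other tissues were low. Col1a1, Col3a1, Pdgfra, Acta2, Cd3e and Cdh5 had no count, and Ptprc had 4 counts in 1 cell. Cd79a and Kdr had 2 counts each and Pecam1 had 1. Vim had 74.0 counts in 20 cells, Lyz2 34.6 in 32 cells and Itgam 27.5 in 28 cells.

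Histone members made up 0.276% of the UMIs of the analysed cells, or 86098 counts. By culture the share was 0.249% and 0.299% in the controls and 0.338%, 0.282% and 0.182% in the mutants. H2A genes held 59.49% of the summed level, H1 18.79%, H2B 9.11%, H3 6.54% and H4 6.07%, shares of counts that are not scaled by transcript length. The labels describe the RNA as polyA RNA, while these mRNAs normally lack a poly(A) tail. All levels here are thus of captured RNA. The part of each gene's mRNA that was captured, and whether it differed between families or cell classes, was not measured.

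Captured histone RNA took its largest shares in the mitotic-like and then the S-like cluster among the named clusters. The mitotic-like cluster (198 cells, 18 of 18 G2 and mitotic markers, with 6 of 18 S markers also raised) had a median share of 0.747% of a cell's UMIs, with quartiles of 0.376% and 1.116%. The S-like cluster (112 cells, 18 of 18 S markers, 4 of 18 mitotic markers) had a median of 0.162% and quartiles of 0.084% and 0.528%. Stem-like cells, 208 cells with Lgr5 and Olfm4, had 0.052%. The enterocyte-like cluster led by Apoa1, an apolipoprotein of absorptive cells, had 0.079%, the enteroendocrine-like cluster 0.107% and the goblet/Paneth-like cluster 0.049%.

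Summed per culture, members reached 7650 and 8951 counts per 1000000 counts (CPM) in the mitotic-like cells of the controls and 6181, 7407 and 5475 CPM in those of the mutants. In S-like cells the values were 3093 and 3866 CPM in controls and 3822, 2574 and 3927 CPM in mutants. The 5 mitotic-like values all lay above the 5 S-like values. The summed mitotic-like level was 1.39 to 2.88 times the S-like level within a culture, higher in 5 of 5 cultures.

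**Figure D1:**
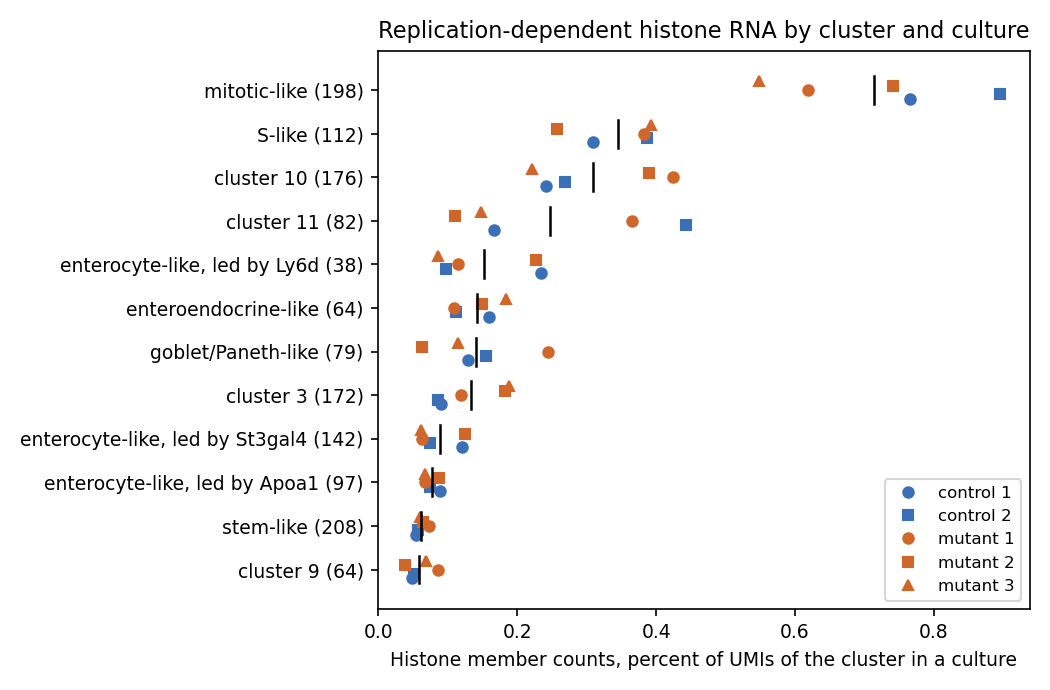
Summed counts of the histone members as a percent of the UMIs of each cluster (vertical axis, number of cells in brackets) in each of the 5 cultures; points are cultures, blue for control and orange for mutant, and bars are means over the cultures. All 5 mitotic-like points lie to the right of all 5 S-like points, and stem-like points lie below 0.1%.

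A cell of the mitotic-like cluster had counts for a median of 25 members (3 to 45), against 14.5 (1 to 39) in the S-like and 5 (0 to 19) in the stem-like cluster. Median depth differed less, at 35193, 28027 and 19078 UMIs. With each cell thinned to 10809 UMIs, leaving out 1 mitotic-like, 1 S-like and 23 Apoa1 enterocyte-like cells as shallower, a count of H1f5 was found in 90.9% of mitotic-like cells (exact binomial 95% interval 85.9 to 94.5). It was found in 62.2% of S-like cells (52.5 to 71.2) and in 10.8% of the Apoa1 enterocyte-like cells (4.78 to 20.2). Unthinned, these shares were 95.5%, 77.7% and 21.7%. In the Apoa1 enterocyte-like cluster as a whole 0 of 18 mitotic and 0 of 18 S markers were raised. Markers were not checked cell by cell. The intervals cover counting error only.

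The clusters do not divide the cell cycle evenly, so cells with at least 10000 UMIs, 1092 in all, were also ranked into 5 equal bins by their S and by their mitotic marker scores, bin 5 being the highest. A bin is a range of a score, not a cell type, and 58 cells lay within 0.05 of the lower edge of the top S bin and 38 of that of the top mitotic bin. The histone share was highest where both scores were high. Cells in S bins 4 and 5 and the top mitotic bin, 128 cells of which 108 were mitotic-like, had a median of 0.921%. Cells in the top S bin with mitotic bins 1 to 3, 60 cells, had 0.067%. Of these 16 were S-like and 44 lay outside the S-like and mitotic-like clusters. The 492 cells in bins 1 to 3 of both scores had 0.050%.

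The ranges between held intermediate shares. Cells in the top S bin and mitotic bin 4, 110 cells, had a median of 0.378%. Cells in the top mitotic bin and S bins 1 to 3, 91 cells, had 0.356%. Pooled per culture, the share in the range high in both scores was 0.928% and 1.174% in controls and 0.772%, 0.853% and 0.733% in mutants, so the controls lay above all mutants there. In the top S bin with mitotic bin 4 it was 0.378% and 0.532% in controls against 0.524%, 0.416% and 0.511% in mutants, and the groups overlapped.

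**Figure D2:**
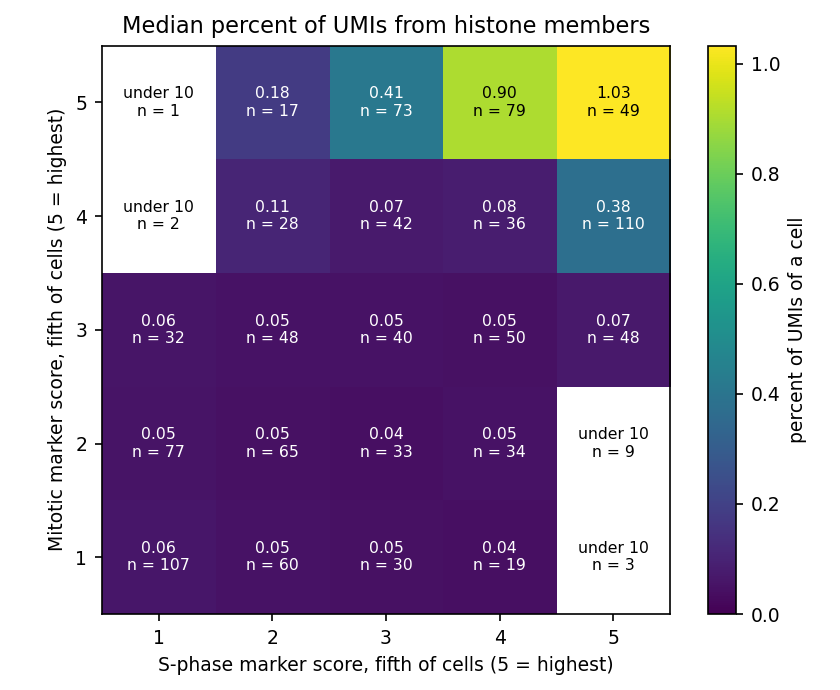
Median percent of a cell's UMIs from histone members in 1092 cells, by bin of the S-phase score (horizontal axis) and of the mitotic score (vertical axis), 5 being highest; colour and the upper number of each box give the median, n the cells, and boxes under 10 cells have no value. Medians increase along the top row from 0.18% to 1.03%, and in the column of highest S scores from 0.07% in mitotic bin 3 to 0.38% in bin 4.

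Within the mitotic-like cluster, cells with higher S scores had more histone RNA (Spearman's rho 0.46 over 198 cells, described across cells that share a library, with no test), and the mitotic score itself gave rho 0.06. The percent of mitochondrial counts gave 0.40 and the UMIs -0.22, and their part in the relation was not tested. Within the S-like cluster rho was 0.51 with the S score, 0.23 with the mitotic score and 0.36 with the UMIs.

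S-like and mitotic-like cells were then compared gene by gene on counts summed per culture, with the culture as a block. Of 62 members, 50 passed the filter on low counts, and 37 of them were lower in S-like cells and 0 higher (edgeR quasi-likelihood test, Benjamini-Hochberg adjusted p under 0.05); over all 7481 genes tested 5.24% were lower. All 50 lay below zero, with a median log2 fold change of -1.12 against 0.00 for all genes. The filter favours members that are high in either class: 55 members passed it within mitotic-like cells alone and 37 within S-like cells alone. With no filter 61 members could be fitted, and all 61 fitted values lay below zero with a median of -1.09. The measured levels were less uniform. Mean CPM was higher in S-like than in mitotic-like cells for H2ac6, Hist1h2bp and H2bc21. H3c4, H3c1 and H2bc21 were lower in S-like cells in only 2 of 5 cultures. Lower calls numbered 4 of 5 for H1, 13 of 15 for H2A, 8 of 14 for H2B, 7 of 9 for H3 and 5 of 7 for H4. By DESeq2 the number was 22, against 2.3% of all genes. When cells were kept only up to 15% mitochondrial counts and clustered again it was 21, with 2 members higher, H1f1 (log2 0.62) and H4c9 (log2 0.56); the S-like cluster then held 158 cells and 7 of 18 mitotic markers, and the mitotic-like cluster 143 cells and 3 of 18 S markers. A further mitotic-like cluster of 93 cells, with 4 of 18 mitotic markers and led by Ccnb2 and Cenpa, was left out there, since the cluster with most markers stood for each class.

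Linker histones bind DNA between nucleosomes and help to compact it. H1f5 was at 874 and 1029 CPM in mitotic-like cells of the controls and at 684, 749 and 523 CPM in those of the mutants. In S-like cells it was at 399 and 561 CPM in controls and 453, 175 and 376 CPM in mutants. S-like values were lower in 5 of 5 cultures, and the fitted log2 fold change was -1.04 (SE 0.10, edgeR adjusted p = 1.79e-09). H1f5 in stem-like cells lay between 18.6 and 41.8 CPM, so both dividing classes stood above all stem-like values.

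H1f4, which shares 34.7% of its 31-base words with other members, was also lower in S-like cells. It was at 334, 359, 271, 372 and 238 CPM in mitotic-like cells (controls 1 and 2, then mutants 1 to 3) and at 186, 190, 186, 115 and 243 CPM in S-like cells, where only mutant 3 was not lower. The log2 fold change was -0.85 (SE 0.11, edgeR adjusted p = 7.44e-07). H1f3 had -0.91 (SE 0.14) and H1f2 -0.73 (SE 0.18), both called. H1f1 was at 45.0 ± 10.4 CPM (SD, n = 5) in mitotic-like and from 26.3 to 55.2 CPM in S-like cells, a log2 difference of -0.22 (SE 0.16) that did not pass the test.

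H2A and H2B pair into the dimers that flank the tetramer of H3 and H4 within the nucleosome core. H2ac8 was at 1237 and 1630 CPM in mitotic-like cells of the controls and 1112, 1269 and 893 CPM in those of the mutants. In S-like cells it was at 411 and 571 CPM in controls and 726, 454 and 557 CPM in mutants. Every S-like value lay below every mitotic-like value, with a log2 fold change of -1.23 (SE 0.09, edgeR adjusted p = 1.48e-12). Hist1h2ap, another H2A gene, was at 1044 to 1389 CPM in mitotic-like and 337 to 536 CPM in S-like cells, again without overlap (log2 -1.41, SE 0.06).

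The other H2A genes among the 12 members with most counts were also called lower in S-like cells. Their log2 fold changes were -1.12 for Hist1h2ao (SE 0.14), -1.42 for H2ac7 (SE 0.14), -1.65 for H2ac4 (SE 0.19), -0.72 for H2ac12 (SE 0.15) and -0.63 for H2ac11 (SE 0.13). Hist1h2ao and Hist1h2ap had the same CPM in every culture in stem-like cells. The remaining H2A calls were H2ac15 at -2.04, H2ac10 at -1.41, H2ac18 at -1.19, H2ac19 at -1.04, H2ac20 at -0.89 and H2ac13 at -0.72.

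Of the H2B genes, those called lower in S-like cells were H2bc14 at -1.90, H2bc15 at -1.89, H2bc13 at -1.71, H2bc11 at -1.48, H2bc3 at -1.47, H2bc18 at -1.22, H2bc6 at -1.12 and Hist1h2bq at -0.71 on the log2 scale. H2bc8, which shares the promoter shown above with H2ac8, had -0.78 (SE 0.30) and did not pass the test. H2bc4 was at 104, 84.7, 71.2, 51.1 and 63.1 CPM in mitotic-like cells and 47.7, 72.5, 81.2, 68.2 and 54.8 CPM in S-like cells (controls 1 and 2, then mutants 1 to 3). The classes overlapped for H2bc4, at a log2 difference of -0.24 (SE 0.15).

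H3 and H4 form the central tetramer of the nucleosome. H3c3 was at 223 and 223 CPM in mitotic-like cells of the controls and 115, 152.5 and 103 CPM in those of the mutants, and at 57.8 to 95.7 CPM in S-like cells. The classes did not overlap, with a log2 fold change of -1.22 (SE 0.15). H3c10 had the largest fitted fall of the 50 members tested, -2.14 (SE 0.41), and H3c7 (-1.67), H3c15 (-1.43), H3c2 (-1.40), H3c6 (-1.12) and H3c11 (-1.12) were also called.

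H4c4 was at 213, 194, 155, 207 and 158 CPM in mitotic-like cells and 60.1, 108, 62.5, 51.5 and 84.2 CPM in S-like cells, in the same order of cultures. All S-like values were lower, with a log2 fold change of -1.41 (SE 0.12). H4c3 at -1.64, H4c8 at -1.48, Hist1h4n at -1.14 and Hist1h4m at -1.06 were the other H4 calls. H4c9 had the smallest difference of all 50 members, -0.09 (SE 0.17).

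Most members were higher in both cycling classes than in stem-like cells. All 50 tested members were higher in mitotic-like than in stem-like cells, against 17.0% of all 8269 genes tested, with a median log2 fold change of 3.33. Of 37 members tested between S-like and stem-like cells, 34 were higher in S-like cells, against 11.7% of all genes tested, with a median of 2.43. Only 19 members passed the filter within stem-like cells alone, so many entered through the cycling class where they are high, and these counts and medians are a description. With no filter 60 of all 62 members lay above zero between mitotic-like and stem-like cells, and 58 of 62 between S-like and stem-like cells. The 3 comparisons of classes share cells and are not independent. Among the 50, H2ac15 had the largest mitotic-like excess at 5.65 (SE 0.61), with a stem-like count in only 1 of 5 cultures, so that this value depends on the fit's prior count, and H2bc4 had the smallest at 0.50 (SE 0.17). H1f2 and H2bc4, at 0.11 (SE 0.20) and 0.15 (SE 0.19), and H3c7, at 1.08 (SE 0.42), were not called between S-like and stem-like cells.

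**Figure D3:**
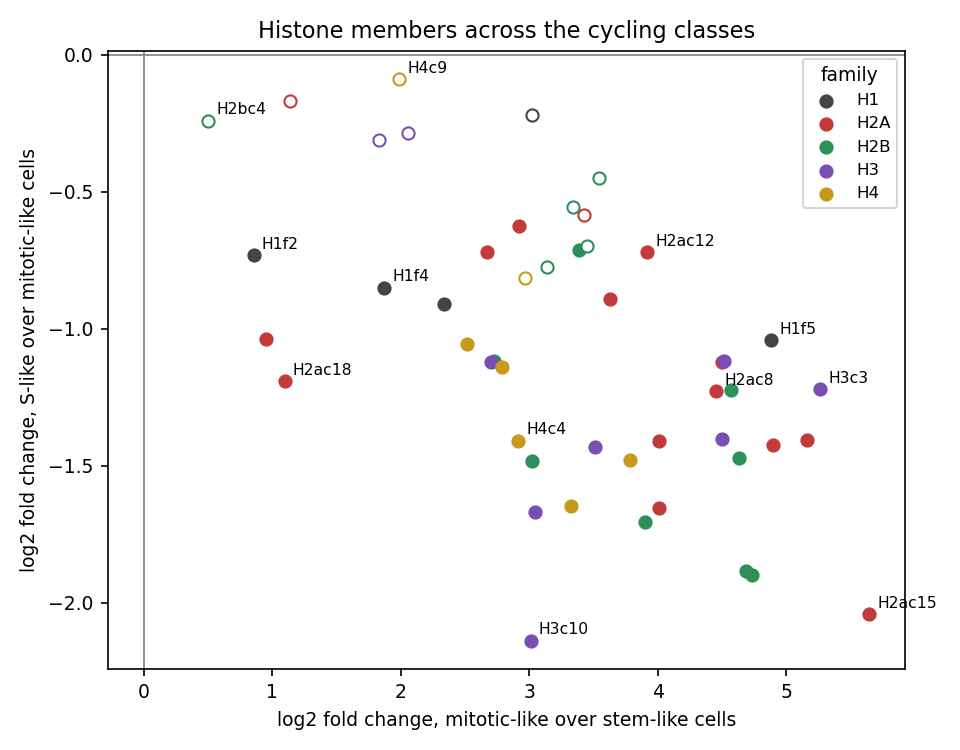
log2 fold change of each histone member tested in both comparisons, from mitotic-like to S-like cells (vertical axis) against that from stem-like to mitotic-like cells (horizontal axis), coloured by family; filled points passed the S-like against mitotic-like test. All points lie right of and below zero; H2bc4 has the smallest horizontal value, 0.50, and H3c10 the lowest vertical one, -2.14.

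The stem-like level relative to the mitotic-like level differed between members. Free RNA in the droplets was not measured, and its part in these low levels was not tested. Among the 55 members with at least 100 counts, the mean stem-like level as a percent of the mitotic-like level had a median of 16.3% over the 15 members whose models run over 200 bases past the stem-loop. It was 8.2% over the 19 whose models end 20 to 200 bases past it, and 6.7% over the 12 whose models end before one. The ranges overlapped, 9.9% to 58.7% for the long models against 2.7% to 53.4% and 1.7% to 24.4%, and the difference was not tested. The 6 without a motif had a median of 11.0% and included H2bc4 at 76.8%.

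Of 61 members with a mitotic-like level above 0, 3 had a higher mean in the Apoa1 enterocyte-like than in the mitotic-like cluster: H2bc4, H2ac18 and H2ac19. In the enteroendocrine-like cluster 8 had a higher mean, the same 3 with H1f2, H2ac6, H4c11, H4c14 and H2bc21; of these H2ac6 had 21.2 counts there and H4c11, H4c14 and H2bc21 had 10.1 or fewer. H2ac18 and H2ac19 are near-identical copies, so they do not count as independent members. The members were not used in the clustering, and these levels are given as a description.

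H2bc4 was at 202 and 204 CPM in the Apoa1 enterocyte-like cells of the controls and at 193, 326 and 258 CPM in those of the mutants. All 5 values lay above the highest mitotic-like value of 104 CPM. In enteroendocrine-like cells H2bc4 was at 128, 268, 177, 130 and 177 CPM, also above all mitotic-like values. The enterocyte-like clusters led by St3gal4 and Ly6d had means of 204.0 ± 63.1 CPM and 198.8 ± 64.4 CPM (SD, n = 5), within 1 SD of the 236.5 ± 56.0 CPM of the Apoa1 cluster. Their names rest on only 3 of 12 and 5 of 12 enterocyte markers, against 10 of 12 for the Apoa1 cluster. With cells thinned to 10809 UMIs H2bc4 was found in 87.8% of the Apoa1 enterocyte-like cells (exact interval 78.2 to 94.3), 42.1% of mitotic-like cells (35.2 to 49.4) and 32.6% of stem-like cells (26.0 to 39.8). Unthinned, the shares of cells with an estimate of at least 1 were 79.4%, 54.5% and 38.5%. These measures differ. For thinning, fractional estimates were first rounded at random to a neighbouring whole number, and shallower cells, 23 of them in the Apoa1 cluster, were left out.

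H2ac18 encodes an H2A and has a near-identical neighbour, H2ac19, on chromosome 3. H2ac18 was at 101, 97.8, 103, 167 and 67.3 CPM in the Apoa1 enterocyte-like cells and at 21.5, 29.6, 18.7, 27.4 and 12.04 CPM in mitotic-like cells (controls 1 and 2, then mutants 1 to 3). The Apoa1 values were higher in 5 of 5 cultures without overlap. In the Apoa1 cells H2ac19 was at 85.5 CPM in mutant 1 and 150 CPM in mutant 2, and equal to H2ac18 in the other cultures; its mitotic-like mean was 19.8 CPM against 21.9 CPM for H2ac18. In enteroendocrine-like cells both were at 75.7, 68.6, 17.7, 128 and 111 CPM, with mutant 1 the 1 culture in which H2ac18 was not above its mitotic-like value. Stem-like cells had H2ac18 at 10.6 ± 2.36 CPM.

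H1f2 had its highest mean in enteroendocrine-like cells. It was at 30.3 and 115 CPM in the enteroendocrine-like cells of the controls and at 134, 233 and 171 CPM in those of the mutants, from 7 to 18 cells per culture. The mitotic-like values were 80.7, 50.4, 51.4, 49.2 and 29.7 CPM, so H1f2 was higher in enteroendocrine-like cells in 4 of 5 cultures. In the Apoa1 enterocyte-like cells it was at 37.1 ± 6.67 CPM. The enterocyte-like cluster led by Ly6d, with 3 to 11 cells per culture, had the next highest mean of H1f2, also above the mitotic-like mean.

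**Figure D4:**
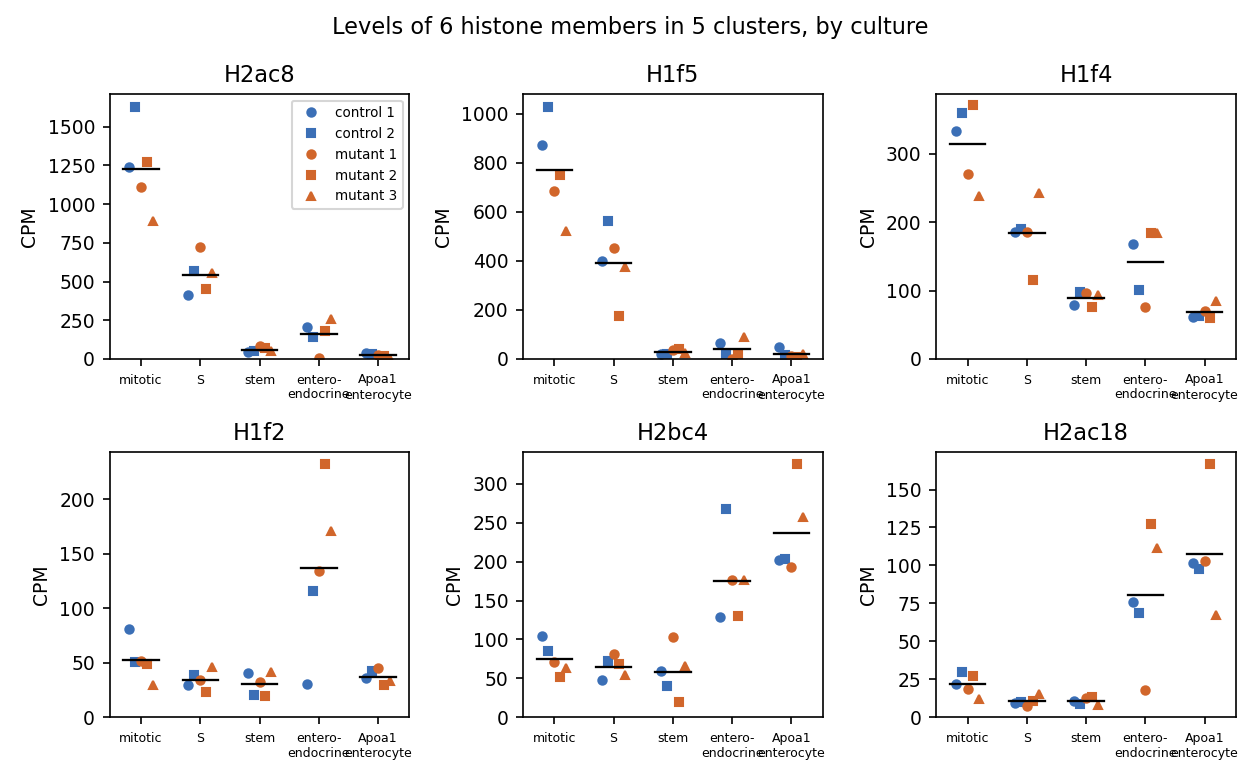
Levels of 6 histone members in CPM (vertical axes, each from 0) in 5 clusters, 1 point per culture, blue for control and orange for mutant, bars for means. H2ac8, H1f5 and H1f4 are highest in mitotic-like cells, whereas H2bc4 and H2ac18 are highest in the Apoa1 enterocyte-like cells and H1f2 in enteroendocrine-like cells.

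The family makeup differed between clusters. H2B genes held 31.9% of the summed histone level in the Apoa1 enterocyte-like cells and 26.5% in those led by St3gal4, against 6.21% in mitotic-like and 7.20% in S-like cells. H2bc4 made up most of the H2B level in both enterocyte-like clusters. The other 16 H2B genes together were at 10.2 ± 4.2 CPM (SD, n = 5) in the Apoa1 cluster and 31.9 ± 16.5 CPM in the St3gal4 cluster, against 368.0 ± 58.4 CPM in mitotic-like cells. H2A genes held 41.5%, 40.6%, 63.6% and 60.3% in the same clusters. H1 genes held 24.5% in enteroendocrine-like and 27.1% in stem-like cells against 17.6% in mitotic-like cells.

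Genes that act on these mRNAs and proteins were read beside the members. They could enter the clustering, so their differences between classes describe the clusters. Of 15 tested genes of histone mRNA processing, 3 were higher in S-like than in mitotic-like cells and 0 lower, against 3.26% of all genes higher. Slbp, the stem-loop binding protein, was at 164, 185, 151, 184 and 134 CPM in S-like cells and 108, 101, 121, 120 and 84.7 CPM in mitotic-like cells (log2 0.55, SE 0.10). Slbp was thus higher in S-like cells in all 5 cultures, whereas the called members were lower there. Casp8ap2, a component of the nuclear bodies where histone genes are transcribed, had 1.16 (SE 0.16) and Cpsf3, the nuclease that cuts histone pre-mRNA, 0.60 (SE 0.17). Npat, the coactivator of histone transcription, had 0.19 (SE 0.23) and was not called.

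Of 17 histone chaperone and assembly genes 5 were higher in S-like than in mitotic-like cells and 0 lower, against 3.26% and 5.24% of all genes. They included Chaf1b (log2 1.11, SE 0.14) and Chaf1a (0.90, SE 0.18) of the assembly factor CAF-1, Nasp (0.59, SE 0.08), which carries free histones, and Hat1 (0.44, SE 0.11), which acetylates new H4. Of 9 tested replacement histones 6 were lower in S-like cells and 0 higher, against 5.24% and 3.26% of all genes. H2ax, the H2A form phosphorylated at DNA breaks, had -1.90 (SE 0.08), the linker histone H1f0 -1.24 (SE 0.10), the centromeric H3 Cenpa -1.51 (SE 0.13) and H3f3b, an H3.3 gene, -0.61 (SE 0.05).

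No difference in histone members between mutant and control cultures passed the test over all cells. Of 57 members tested 0 were called (edgeR, adjusted p under 0.05), against 0.00904% of all 11061 genes; 2 had an unadjusted p under 0.05, and DESeq2 also called 0 (0.0814% of all genes), with 2 at an unadjusted p under 0.05. The median log2 fold change was -0.06, with 32 of 57 below zero. In 5 of 57 (8.8%) the groups did not overlap, against 17.0% of all genes. Over all cells, fewer dividing cells and less RNA per cell cannot be told apart: mutant 3, with the lowest share, had 13 mitotic-like cells of 197, and mutant 1, with the highest, had 61 of 282.

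In S-like cells 0 of 37 members were called, against 0.0302% of all genes; 5 had an unadjusted p under 0.05, and DESeq2 called 0, with 1 at an unadjusted p under 0.05. The median log2 fold change was 0.00, and for 4 of 37 (10.8%) the groups did not overlap, against 20.6% of all genes. H2ac12 was at 62.3 and 102 CPM in controls and at 145, 216 and 114 CPM in mutants, all mutants above both controls, at a log2 difference of 0.95 (SE 0.24, edgeR adjusted p = 0.42). A single S-like cell held 64.1 counts of H2ac12, the most of any cell, and its part in these values was not tested. H4c9 was at 45.8 and 56.3 CPM in controls and 28.4, 36.2 and 22.9 CPM in mutants, at -0.80 (SE 0.26, edgeR adjusted p = 0.82). In stem-like cells 0 of 19 were called by edgeR, against 0.0135% of all genes, and 0 by DESeq2, with 4 and 0 at an unadjusted p under 0.05; the groups did not overlap for 4 of 19 (21.1%), against 21.2% of all genes. In stem-like cells 15 of the 19 lay above zero, with a median of 0.22, and the 4 without overlap, H1f5, Hist1h2an, H3c7 and H4c4, were all higher in mutants. With no filter 28 of 60 lay above zero, with a median of -0.03.

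The summed member level of stem-like cells was 549 and 578 CPM in controls and 732, 639 and 602 CPM in mutants. In the unnamed cluster 3 it was 910 and 855 CPM in controls and 1195, 1823 and 1885 CPM in mutants. All mutants lay above both controls in these 2 clusters, whereas in mitotic-like cells all mutants lay below both controls, as given above. In every other cluster the control and mutant sums overlapped. By family, the sums of H1, H2A, H2B, H3 and H4 each overlapped in stem-like cells. In cluster 3 the H4 sums overlapped and those of H1, H2A, H2B and H3 did not. Among all genes tested the groups did not overlap for 21.2% in stem-like and 19.2% in mitotic-like cells. Such a share was not determined for cluster 3. In cluster 3 the median cell had 0.053% of its UMIs in members and the highest cell 1.171%. The part of its highest cells in the cluster 3 sums was not tested.

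In mitotic-like cells 1 of 55 members was called, lower in mutants, against 0.0238% of all 8390 genes called in either direction, and the others did not pass. H3c7 was at 72.8 and 88.5 CPM in the controls and 22.3, 33.9 and 41.8 CPM in the mutants. The groups did not overlap, with a log2 fold change of -1.47 (SE 0.22, edgeR adjusted p = 0.0287; DESeq2 0.0362). The call was lost without control 1 (0.0755), without control 2 (0.712), without mutant 1 (0.15) and with cells placed by MULTIseqDemux (0.562). H3c7 shares 55.2% of its 31-base words with other members, and 84.6% of its values are fractions.

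Of the 55 members 49 lay below zero in mitotic-like cells, with a median of -0.40 against 0.00 for all genes, and 23 had an unadjusted p under 0.05. The groups did not overlap for 22 of 55 members (40.0%), 21 of them lower in mutants, against 19.2% of all genes. Members can share reads, as above, so these counts do not stand for independent genes. H1f5, with whole counts, had -0.54 (SE 0.12, edgeR adjusted p = 0.404), with both controls (874 and 1029 CPM) above all mutants (684, 749 and 523 CPM). H1f1 had -0.45 (SE 0.21, edgeR adjusted p = 1) and H3c3 -0.83 (SE 0.14, edgeR adjusted p = 0.0632).

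By family, the summed H3 level in mitotic-like cells was 605 and 664 CPM in controls and 390, 456 and 358 CPM in mutants. The H2B sum in mitotic-like cells was 549 and 501 CPM against 387, 381 and 397 CPM, and the H1 sum 1413 and 1588 CPM against 1122, 1262 and 900 CPM. Control and mutant values did not overlap in these 3 families. They overlapped for H2A, at 4620 and 5784 CPM against 3933, 4873 and 3473 CPM, and for H4, at 463 and 415 CPM against 350, 436 and 347 CPM. The makeup of the cluster by culture is given beside this: 57.9% and 60.9% of scored control cells and 65.6%, 69.2% and 61.5% of mutant cells lay in S bins 4 and 5, and 92.1% and 93.5% against 83.6%, 97.4% and 84.6% in the top mitotic bin. The median mitochondrial percent was 3.47 and 3.69 in controls and 3.00, 3.14 and 3.08 in mutants. The median UMIs per mitotic-like cell were 31583 and 32676 in controls and 36270, 36370 and 32954 in mutants, also without overlap. The part of either in the result was not tested.

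**Figure D5:**
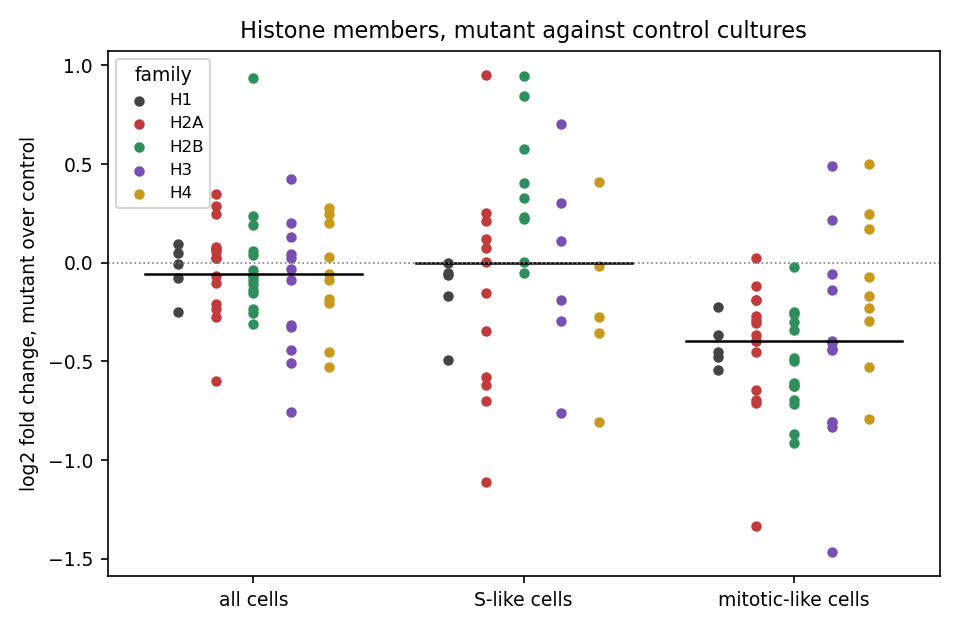
log2 fold change from control to mutant cultures of each tested histone member in all cells (57 members), S-like cells (37) and mitotic-like cells (55); points are genes coloured by family and bars are medians. The medians are -0.06, 0.00 and -0.40, and 1 point, H3c7 in mitotic-like cells at -1.47, passed the test.

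The mutant effect differed between S-like and mitotic-like cells for 1 of 50 members, H2ac12, against 0.0134% of all 7481 genes (interaction term, edgeR adjusted p under 0.05; DESeq2 called 0, with 4 at an unadjusted p under 0.05). H2ac12 was at 202 and 276 CPM in mitotic-like cells of the controls and at 161, 205 and 156 CPM in those of the mutants, and these overlapped, whereas its S-like values, given above, were higher in all mutants. The difference of the effects was 1.44 on the log2 scale (SE 0.20, edgeR adjusted p = 2.39e-04; DESeq2 0.0758). H2ac12 shares 91.2% of its 31-base words with other members and 97.2% of its values are fractions. The part of the S-like cell with 64.1 counts of H2ac12 in this difference was not tested. None of the tested replacement histone, histone mRNA processing or chaperone genes was called by edgeR between genotypes in any of these comparisons; Slbp had a log2 difference of 0.08 (SE 0.11) over all cells.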

How the data were processed

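One RNA library and one hashtag library of a pool of 5 cultures were used. The hashtag table holds whole counts as deposited by the authors. The RNA table holds estimated counts per gene and cell as deposited, of which 95.594% of values above 0 are whole. The submitters' processing notes name the build mm10 and the tools Salmon 1.4.0 with alevin, Seurat 4.3.0 and Cell Ranger 6.1.0, without the step each served. The submitters' labels link hashtags to groups.

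Barcodes were placed with HTODemux (Seurat 5.3.0, positive quantile 0.99). A barcode positive for more than 1 hashtag was dropped as a mixed doublet, and doublets within 1 culture may remain. Cells were clustered with scanpy 1.11.5 (2000 variable genes without the members, 30 components, 15 neighbours, Leiden 0.8), and clusters were named from at least 3 markers. Cluster names are rebuilt from these data. Estimated counts were summed per culture and class, rounded, filtered with filterByExpr and tested with edgeR 4.0.16 (TMM, quasi-likelihood, Benjamini-Hochberg over all genes tested); class comparisons had the culture as a block, since the same 5 cultures gave both classes. DESeq2 1.42.0 was an alternative. The scripts were tested on simulated data.

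The members and all gene lists were chosen with earlier results of these data known. Named are the 12 members with most counts, members passing a test and the ends of rankings, and of the lists of replacement histones, histone mRNA processing genes and chaperones those passing, up to 4 per direction, with Slbp and Npat. H2bc8, H1f1, H1f2, H2ac18, H2ac19, H4c9, Hist1h2bp, H3c1, H3c4 and the members higher in enteroendocrine-like cells were also described after their values were seen. The bins of marker scores and several alternatives were added after the data were seen. Symbols were matched to GENCODE vM21 and RefSeq by current and older names, for 62 of 62 members.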

Additional observations from a re-analysis of the deposited data

Results flagged for a closer look

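The highest H2ac12 count in 1 cell, 64.1, lay in an S-like cell, and its part in what follows was not tested. The mutant effect on H2ac12 differed between S-like and mitotic-like cells by a test of the difference itself, at 1.44 on the log2 scale (SE 0.20, edgeR adjusted p = 2.39e-04). It was not called by DESeq2 (1.42, adjusted p = 0.0758), with MULTIseqDemux (1.24, adjusted p = 0.189) or with cells of at most 15% mitochondrial counts (0.56, adjusted p = 0.999), and stayed called when any 1 culture was left out.

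Histone counts also appeared in barcodes outside the comparisons. The 1054 filtered barcodes with no hashtag had 0.209% of their UMIs in histone members, and the 239 with several hashtags had 0.244%, against 0.276% in the analysed cells. Their median depths were 5509, 24768 and 22323 UMIs.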

How the results depend on the processing

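The number of members lower in S-like than in mitotic-like cells, 37, moved to 22 with DESeq2 and to 21 with at most 15% mitochondrial counts. In the latter H2ac11 changed sign, to 0.54 (adjusted p = 0.0819), the 1 sign change among 509 pairs of a called member and an alternative. Leaving out 1 culture gave 33 to 40, and without the replicate block 31 were lower. Of the 37, 13 passed in every alternative that tested them. The median ranged from -1.55 to -0.42 over the 14 alternatives. The counts against stem-like cells stayed within 1.5 times, at 31 to 36 and 45 to 53 when 1 culture was left out.

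Mutant against control gave 0 by edgeR and by DESeq2 over all cells, and 0 in each other alternative run, with 2 at an unadjusted p under 0.05 by either tool. In S-like cells 4 members were called with no filter on low counts and 0 to 2 when 1 culture was left out (1 without control 2, 2 without mutant 1). In mitotic-like cells 8 were called with no filter, 3 with at most 15% mitochondrial counts and 0 to 6 when 1 culture was left out (0 without either control or mutant 1, 6 without mutant 2); the median stayed between -0.50 and -0.29. The interaction gave 0 with DESeq2, 0 with MULTIseqDemux, 3 with no filter and 1 to 4 when 1 culture was left out (4 without mutant 2). The cause of these moves was not tested. No paired analysis was possible because the labels tie no control culture to a mutant one.

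The 2 controls and 3 mutants, with 15 to 28 S-like cells per culture and 13 mitotic-like cells in mutant 3, limit the precision of the genotype comparisons; the smallest detectable difference was not determined. Where 1 culture is left of the controls, it is assumed to vary like the other group.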

Other observations

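The unnamed clusters also held histone RNA. Cluster 10, 176 cells with a median of 5667 UMIs and mitochondrial genes among its leading genes, had a median histone share of 0.167%, and its highest cell reached 5.35%. Cluster 11, 82 cells with a median of 1377 UMIs, had 0.239%. In the enterocyte-like, goblet/Paneth-like and unnamed cluster 3, medians were 0.049% to 0.079%, but 3 cells of each of the Ly6d, St3gal4 and goblet/Paneth-like clusters and 9 cells of cluster 3 exceeded 0.5% of their UMIs. No cell of the Apoa1 enterocyte-like cluster, the stem-like cluster or cluster 9 did.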
